A study of Rattus norvegicus with 14 samples.

Results

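The hair shaft keratins are the proteins that fill the cortex and cuticle of the hair fibre. The 10 genes considered here were the type I genes Krt31, Krt32, Krt33a, Krt33b, Krt34 and Krt35 and the type II genes Krt81, Krt83, Krt85 and Krt86. They were taken as the array probes whose transcript accession belongs to one of these genes in rat RefSeq, and were chosen with their levels by group and slide already known. A probe was matched for 7 of the 10 (Krt31, Krt33a, Krt33b, Krt34, Krt35, Krt81 and Krt85), and all 7 passed the filter on dim probes, among 18611 genes tested. Krt32, Krt83 and Krt86 are named only. Skin came from 6 male CD hairless rats exposed to 94 GHz millimetre waves for 3 h per day on 3 days per week over 5.5 months and from 8 sham-exposed male rats of the same hairless strain. The rats were housed in pairs, no genotype beyond the strain was given, and each animal gave 1 array. The labels do not give the age of the rats or the body site of the biopsies. The 14 one-colour arrays lay on 4 slides. Exposed arrays were on slide 2 (2 arrays), slide 3 (3 arrays) and slide 4 (1 array), and sham arrays on slide 1 (2 arrays), slide 3 (3 arrays) and slide 4 (3 arrays). The 75th percentile of array signal ran from 1075 to 1966 scanner units in exposed and from 804.5 to 1967 in sham animals. Levels below are log2 processed signals minus that percentile of the array, so 0 is the level of a probe at the percentile and 1 unit is a doubling of signal. Probes bind with different strength, so levels are compared between animals and not between genes.

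A hair follicle builds its fibre from matrix cells in the bulb, which move upward, stop dividing and switch on keratin genes in sequence. Type I and type II keratins pair to form the filaments, and keratin-associated proteins then crosslink them. In human follicles KRT35 and KRT85 come on first, in the matrix and lower cortex, while KRT31, KRT33A, KRT33B, KRT34, KRT81, KRT83 and KRT86 follow higher in the cortex and KRT32, KRT82 and KRT40 belong to the cuticle. The inner root sheath around the fibre makes keratins of its own, such as Krt25, Krt27, Krt28 and the Krt71 to Krt74 group. Follicles make fibre only in their growth phase, so the RNA of these genes marks follicles that are building hair at the time of sampling.

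The type I members lie side by side on chromosome 10 in the RefSeq gene table, in the order Krt33a, Krt33b, Krt34, Krt31, Krt32 and Krt35, with Krt36 next to them. On chromosome 7 the type II members follow one another as Krt81, Krt86, Krt83 and Krt85. Since the measured members moved together across animals (below), the promoter letters of 4 of them are shown, 2 upper cortex genes and the early pair, from RefSeq (build GRCr8). Each runs from 250 bases before the start given in that table to a TATAAA string, or in Krt85 to the unmarked letters aataaaa, and stops before the transcript. The closing TATAAA began 29 bases before that start in Krt31, 31 in Krt34 and 85 in Krt35, so these ends are not equivalent. Capitals mark 3 strings searched on both strands: TATAAA, CTTTGAAG and TTTTATG, the last also as its reverse complement CATAAAA.
Krt31, chr10:85483324-85483550, minus strand: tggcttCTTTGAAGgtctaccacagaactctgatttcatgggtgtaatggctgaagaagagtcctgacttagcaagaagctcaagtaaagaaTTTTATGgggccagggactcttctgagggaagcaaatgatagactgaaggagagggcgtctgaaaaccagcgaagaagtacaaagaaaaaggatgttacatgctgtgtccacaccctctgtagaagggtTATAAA
Krt34, chr10:85474527-85474751, minus strand: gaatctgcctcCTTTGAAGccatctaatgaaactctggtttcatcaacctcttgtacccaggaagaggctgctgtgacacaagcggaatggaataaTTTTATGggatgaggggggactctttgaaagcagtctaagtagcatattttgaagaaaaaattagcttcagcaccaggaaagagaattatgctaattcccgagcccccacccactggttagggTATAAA
Krt35, chr10:85530048-85530218, minus strand: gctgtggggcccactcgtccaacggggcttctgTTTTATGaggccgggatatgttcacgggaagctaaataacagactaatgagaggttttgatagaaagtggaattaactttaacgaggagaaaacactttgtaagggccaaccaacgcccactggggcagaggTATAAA
Krt85, chr7:134515812-134516036, minus strand: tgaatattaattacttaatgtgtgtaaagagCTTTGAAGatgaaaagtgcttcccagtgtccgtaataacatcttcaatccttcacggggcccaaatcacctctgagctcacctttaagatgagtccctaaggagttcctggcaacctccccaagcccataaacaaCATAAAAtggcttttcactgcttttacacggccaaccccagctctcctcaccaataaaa
Promoters of 6 of the 10 members were in the table (Krt31, Krt32, Krt33b, Krt34, Krt35 and Krt85), each with 250 bases before and 50 after the start. CTTTGAAG, which contains a core recognised by LEF1-type factors, was in 4 of these 6 (Krt31, Krt32, Krt34 and Krt85), against 1.62% of all 33469 promoters of the same length. TTTTATG was in all 6, on the coding strand in 5 of them and reversed in Krt85, against 4.65% of all promoters. TATAAA was in 5 of 6, Krt85 being the exception, against 14.2% of all promoters. No matches overlapped (0 between different strings). The last 2 strings named in capitals were chosen after the promoters were read, and the members are related copies of ancestral genes, so these shares are a description of the letters and say nothing about binding.

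Among the upper cortex genes, Krt34 showed the widest range between animals. In exposed animals its level ran from -2.24 through a median of 0.74 to 3.73, and in sham animals from -1.82 through a median of 0.60 to 2.89. The groups overlapped almost completely: the lowest level of all was in exposed animal 1 and the highest in exposed animal 3. Krt33a ran from -1.83 (median 0.64) to 3.49 in exposed and from -1.81 (median 0.09) to 2.72 in sham animals. Krt33b, its neighbour and close relative, ran from -1.76 (median -0.09) to 3.42 in exposed and from -2.21 (median -0.28) to 2.42 in sham animals. Both were highest in exposed animal 3, and their 2 lowest levels were in exposed animal 1 and sham animal 1. Krt31 ran from -2.44 (median -0.96) to 1.52 in exposed and from -1.81 (median -1.44) to 1.08 in sham animals, the narrowest range of the 7. The type II partner Krt81 ran from -1.24 (median 0.01) to 3.33 in exposed and from -1.88 (median -0.03) to 2.54 in sham animals. Its order of animals was nearly that of Krt33b.

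The early pair followed each other less closely over 14 animals (Pearson's r = 0.81, Spearman's rho 0.92) than without sham animal 6 (r = 0.94). Krt85 ran from -3.41 (median -0.66) to 1.92 in exposed and from -3.44 (median -1.94) to 1.54 in sham animals. Krt35 ran from -2.85 (median -1.38) to -0.29 in exposed and from -6.22 (median -2.73) to -0.41 in sham animals. Its lowest level, in sham animal 6, was the only member value that was not well above background. Of the 7 genes, Krt35 alone reached its highest level in exposed animal 6.

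**Figure D1:**
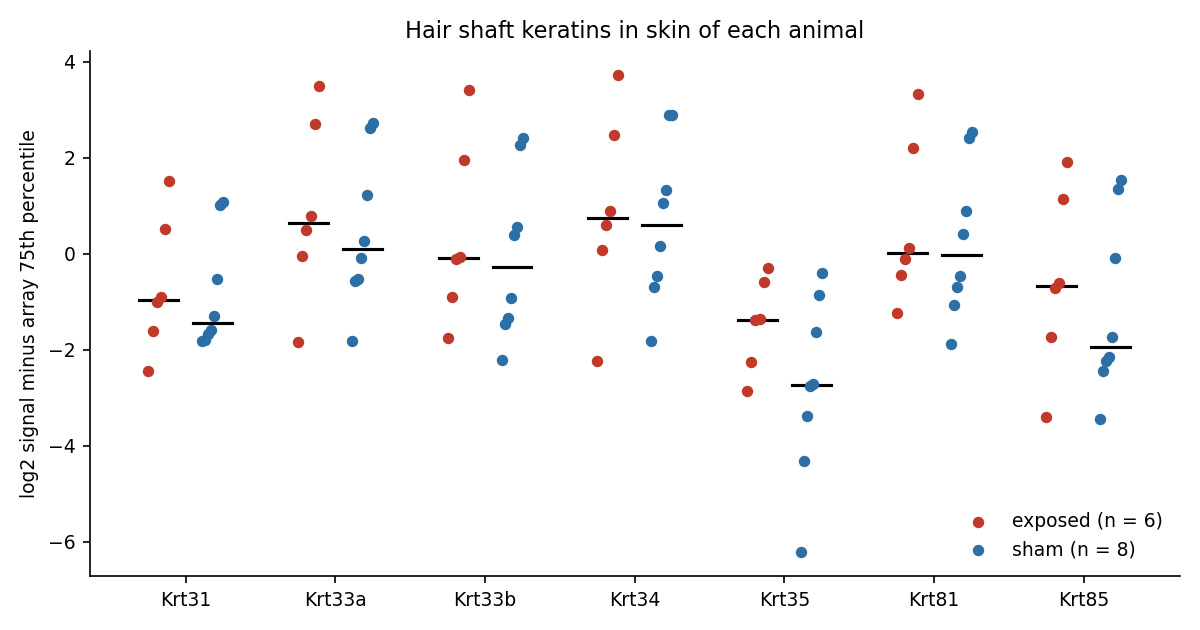
Level of each measured hair shaft keratin (log2 signal minus the 75th percentile of the array) in every animal, exposed left and sham right of each pair. Each point is an animal and each bar a group median. For every gene the groups overlap, and the lowest Krt35 value is sham animal 6 at -6.22.

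Between the highest and the lowest animal, signal differed 15.6-fold for Krt31, 37.2-fold for Krt81, 39.9-fold for Krt33a, 41.1-fold for Krt85, 49.8-fold for Krt33b and 62.6-fold for Krt34. For Krt35 the fold was 16.4 over the 13 animals with a level well above background. The SD over the 14 animals was 1.28 to 1.83 for the 7 genes (1.25 for Krt35 without sham animal 6), where the median over all genes tested was 0.24. By this SD they ranked between 54 and 190 among the 18611 genes. Each probe had 2 spots per array, and the SD between spots on an array had a median over arrays of 0.0163 to 0.101 and reached at most 0.573. The spots of an array share the biopsy, labelling and hybridisation, so this covers the spotting and reading error only. As the samples are bulk skin, fewer shaft-forming cells and less keratin RNA per cell cannot be told apart.

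The 4 animals with the highest mean over the 7 genes were exposed animals 3 and 6 and sham animals 2 and 3, on slides 1, 3 and 4. Their mean levels, each gene centred on its own average, were 2.67 and 1.79 in the exposed pair and 2.05 and 1.97 in the sham pair. Below them came a gap of 1.29, then the other 10 animals from 0.51 in sham animal 8 to -2.19 in sham animal 1. In 6 of the 7 genes the largest gap between neighbouring animals fell at this place. Krt35 had no such step there: its gap after the fourth animal was 0.52, and its largest gap separated sham animal 6, not well above background, from the rest. With 2 of 6 exposed and 2 of 8 sham animals above the gap, both groups held animals of either kind.

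Across the 14 animals the 6 genes other than Krt35 followed each other closely. Over their 15 pairs Pearson's r was 0.93 to 1.00 and Spearman's rho 0.84 to 1.00. Within the 10 animals below the gap r was 0.67 to 0.98. The tightest pair was Krt33b with Krt81, a type I gene and a type II gene on different chromosomes, with r = 1.00 over 14 animals and 0.98 within the 10. Krt35 followed the others less closely, with r of 0.62 (Krt34) to 0.81 (Krt85) over 14 animals and 0.17 (Krt33b) to 0.64 (Krt85) within the 10. Without sham animal 6 those 6 correlations were 0.85 to 0.94. Krt85 was thus the member most like Krt35 in each of these comparisons. These correlations describe the same 14 arrays, share each array's scaling and carry no test. The probe letters are not in the files used here, so how far a probe also reads a near-identical copy (among Krt31, Krt33a, Krt33b and Krt34, or among Krt81, Krt83, Krt86 and Krt87) is uncertain.

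Sham animal 6 did not hold 1 place in the order of animals. Among the 14 it ranked 6 for Krt34, 6 for Krt33b, 6 for Krt81 and 8 for Krt33a, but 11 for Krt85, 13 for Krt31 and 14 for Krt35. The level of Krt34 minus that of Krt35 ran from 0.61 (median 2.29) to 4.31 in exposed animals and from 2.29 to 3.75 in the 7 sham animals other than animal 6. In sham animal 6 Krt35 was not well above background, so its difference has no exact value. The offset between these probes has no meaning of its own, but the same offset applies to every animal. This array also had the lowest signal of the series (804.5 scanner units) and stood apart in many gene groups. It was the lowest of the 14 animals for the means of other hair keratins (-1.35), adipocyte genes (-1.11), outer root sheath genes (-0.80), interfollicular keratins (-0.56), proliferation genes (-0.48) and follicle regulators (-0.39). The part of array signal in its Krt35 value was not tested.

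**Figure D2:**
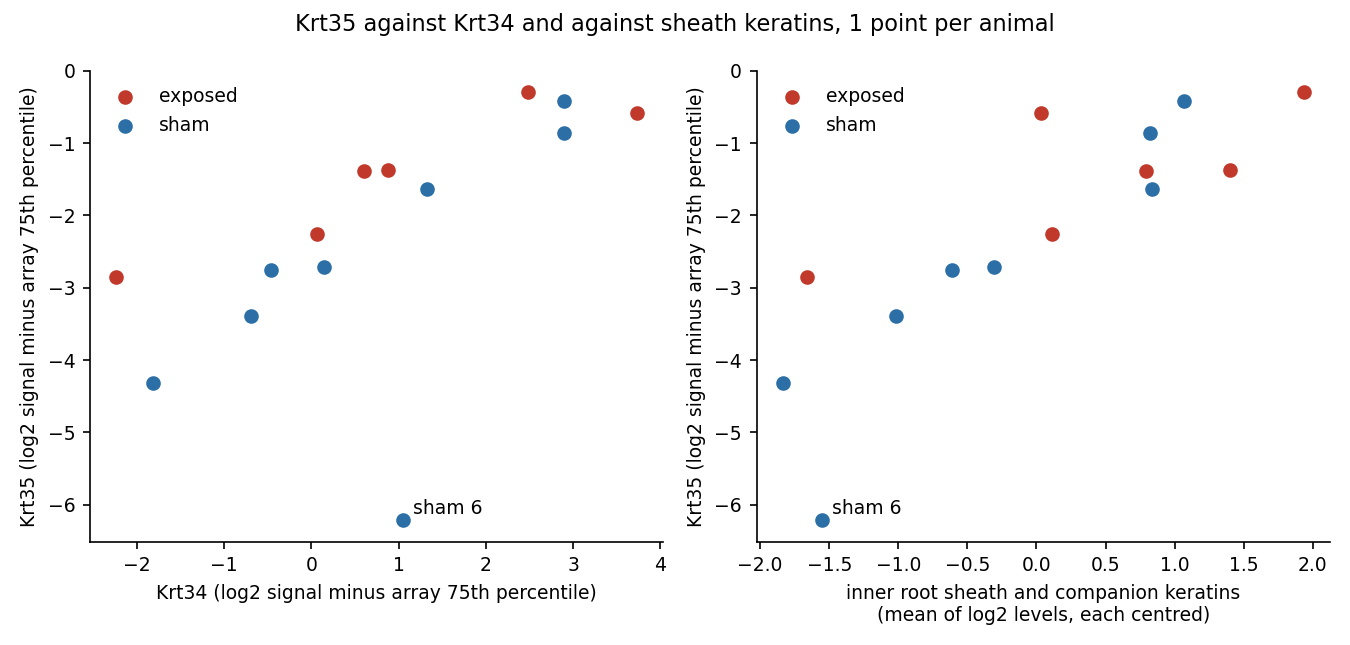
Krt35 level of each animal (log2 signal minus the 75th percentile of the array) against Krt34 on the same scale (left) and against the mean of 7 inner root sheath and companion layer keratins, each centred on its average (right). Exposed animals are red and sham animals blue. Sham animal 6 lies below the other animals at a Krt34 level of 1.05, with a Krt35 probe not well above background, and sits at the low end of the sheath keratins, at -1.55.

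The other hair keratins on the array followed the members to different degrees. Of 6 listed genes on the array, 5 passed the filter (Krt36, Krt39, Krt40, Krt82 and Krt87); Krt84, a type II hair keratin, was not kept. Krt87, which the gene table also lists under the older symbol Krt83, tracked the member mean at r = 1.00. Krt36 and Krt39, both type I, had r of 0.88 and 0.91 over 14 animals and 0.49 and 0.68 within the 10 animals below the gap, though Krt39 was not well above background in 8 animals. The cuticle genes Krt82 and Krt40 had r of 0.24 and 0.23 with the member mean over 14 animals, and 0.97 with each other. Within the 10 animals below the gap their r with the member mean was 0.64 and 0.69, above that of Krt36. Without exposed animal 3 alone it was 0.61 and 0.52, and that of Krt36 0.84. With Krt35, Krt82 and Krt40 each had r of 0.56 over 14 animals and 0.89 within the 10 below the gap. Those 10 include sham animal 6, where none of Krt35, Krt82 and Krt40 was well above background. Not every cuticle gene had a low r with the member mean: S100a3, given below, had 0.89 over 14 animals. Exposed animal 3 had the highest level of all animals for 6 of the 7 members and the lowest for Krt82 (-7.10) and Krt40 (-6.15), neither of them well above background there; sham animal 6 was next lowest for both, also not well above background. Exposed animal 6 was high on both counts, with the highest Krt82 (-2.60), Krt40 (-0.86) and Krt35 (-0.29) of the 14 animals. Exposed animal 4 was second for Krt40 (-1.57) and Krt82 (-3.74) while its shaft keratins lay at the average, -0.01.

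Keratin-associated proteins ranged between these patterns over the 14 animals. Krtap7-1, Krtap14, Krtap15-1, Krtap13-2 and Krtap1-5 had r of 0.93 to 0.94 with the member mean and 0.00 to 0.24 with Krt40. Without exposed animal 3 these were 0.91 to 0.93 and 0.28 to 0.53. Krtap10-2, Krtap10l1 and Krtap10-10l2 had r of 0.08 to 0.20 with the member mean and 0.95 to 0.97 with Krt40. Krtap10-9, of the same family, was nearer the members (r = 0.75) than Krt40 (0.52). Krtap5-8 lay between (0.75 and 0.59) and Krtap31-1 was nearer Krt40 (0.53 and 0.76). That placement turned on exposed animal 3. Without it Krtap10-9 (0.70 and 0.80), Krtap5-8 (0.73 and 0.81) and Krtap31-1 (0.71 and 0.77) were all nearer Krt40. Within the 10 animals below the gap Krtap10-2, Krtap10l1 and Krtap10-10l2 had r of 0.62 to 0.68 with the member mean, and without exposed animal 3 alone 0.31 to 0.39, so the low values over 14 animals rest in part on the animals above the gap. KRTAP10 proteins are known from the cuticle in human hair. The mean of the 15 measured Krtap genes had r = 0.90 with the member mean. These genes were set out after their values were seen.

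**Figure D3:**
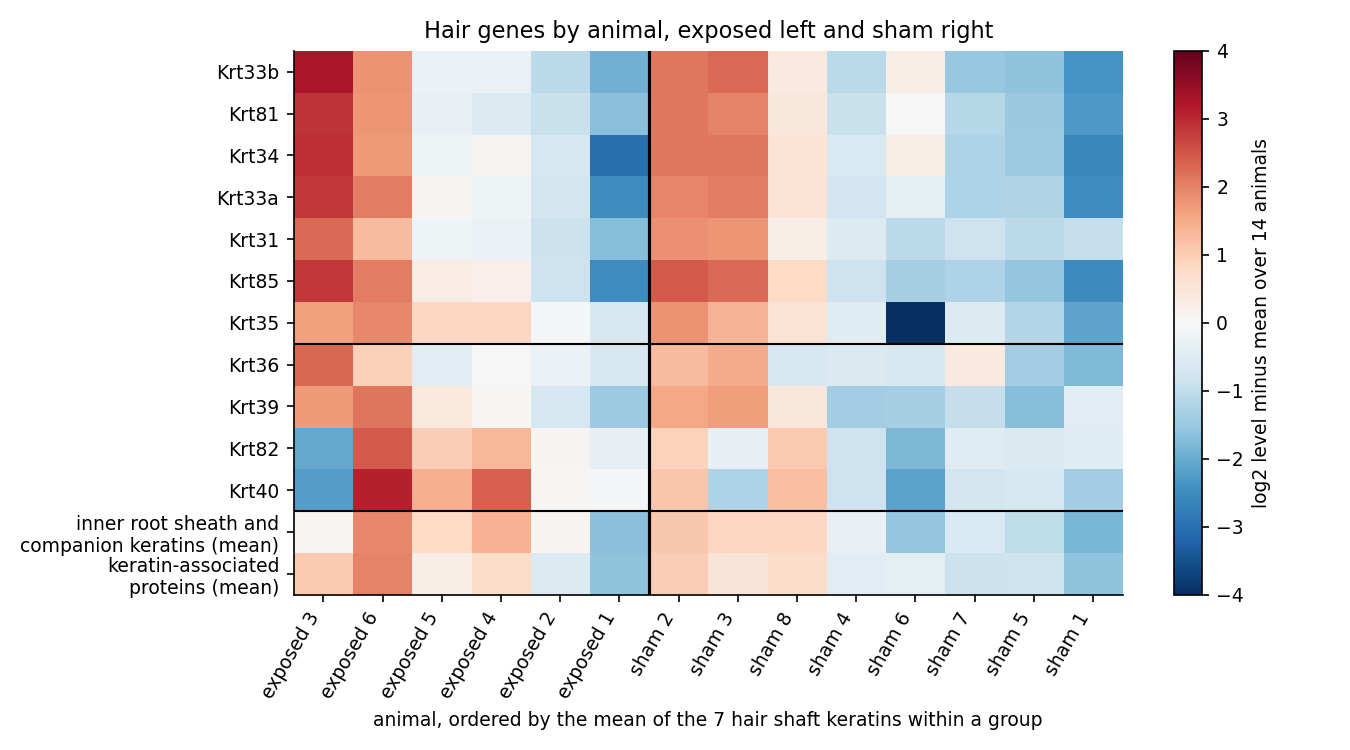
Level of each gene in each animal minus its mean over the 14 animals (log2, colour scale from -4 to 4), exposed left of the vertical line and sham right of it, animals ordered within a group by the mean of the 7 members. Rows above the first horizontal line are the members, rows below it other hair keratins, and the last 2 rows list means. Exposed animal 3 is highest in 6 members and lowest in Krt82 and Krt40; Krt35 stands apart in sham animal 6.

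Inner root sheath and companion layer keratins rose and fell with the shaft genes less tightly. Their mean, over 7 of 9 listed genes, had r = 0.76 with the member mean over 14 animals and 0.90 within the 10 below the gap. By member, over 14 animals, Krt35 had the highest r with it (0.84), then Krt85 (0.80) and Krt33a (0.74), and Krt33b the lowest (0.63). Within the 10 animals the order was another, with Krt85 at 0.93, Krt31 at 0.84, Krt35 at 0.81 and Krt33b at 0.63. Exposed animal 3, with the highest shaft keratins, had a sheath mean of 0.03, and exposed animal 4, at -0.01 for the shaft, had 1.40.

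The study asked whether chronic exposure at 94 GHz changes gene expression in skin. With limma 0 of 18611 genes passed an adjusted p of 0.05 (0.00% of those tested; 636 genes, 3.42%, at an unadjusted p under that value), and 0 of the 7 shaft keratins did. The mean level of every measured member was higher in exposed than in sham skin, 7 of 7, where 43.0% of all genes were higher. As this contrast was known when the members were chosen, nothing is read from that count. For Krt35 the exposed mean was -1.46 and the sham mean -2.79, with SDs over animals of 0.97 (n = 6) and 1.90 (n = 8), so exposed exceeded sham by 1.33 (95% interval -0.34 to 3.00), with sham animal 6 entered at its level below the background limit. For Krt85 the exposed mean was -0.57 (SD 1.93) and the sham mean -1.15 (SD 1.85), 0.58 apart (95% interval -1.41 to 2.58). The differences of Krt33b and Krt33a were 0.47 (95% interval -1.45 to 2.39) and 0.45 (95% interval -1.39 to 2.29). Those of Krt81, Krt34 and Krt31 were 0.38 (95% interval -1.39 to 2.14), 0.25 (95% interval -1.71 to 2.21) and 0.17 (95% interval -1.23 to 1.58). The median over the members was 0.45, beside -0.019 over all genes tested. Each interval held 0. The groups overlapped for all 7 members, where 0.0322% of the genes tested had groups that did not overlap.

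The size of these differences turned on single animals. Without exposed animal 3 the median over the members was -0.132 and 2 of 7 were higher in exposed skin (Krt35 and Krt85), with Krt34 at -0.31 and Krt35 at 1.15. Without exposed animal 6 the median was 0.0963 and 5 of 7 were higher, and without sham animal 1 it was 0.124 and 6 of 7. Without exposed animal 1 it was 0.905, without sham animal 2 0.757, without sham animal 3 0.771, without sham animal 5 0.264 and without sham animal 7 0.282. The Krt35 difference was 0.839 without sham animal 6. With array weights the median was -0.184 and 1 of 7 was higher.

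Within slides most differences were larger, Krt35 on slide 3 being the exception. On slide 3, with 3 animals of each group, Krt35 ran from -1.39 (median -1.37) to -0.58 in exposed and from -3.39 (median -2.71) to -0.86 in sham animals, a difference of 1.20 ± 0.64 (SE). Krt34 ran from 0.60 (median 0.88) to 3.73 in exposed and from -0.69 (median 0.15) to 2.89 in sham animals of that slide, a difference of 0.95 ± 1.16 (SE). Groups overlapped on slide 3 for both genes. On slide 4 the only exposed array, animal 6, was at -0.29 for Krt35 against -6.22, -2.75 and -1.63 in its 3 sham arrays, and at 2.48 for Krt34 against -0.46, 1.05 and 1.32. Over the 7 members the difference was 0.56 to 1.20 within slide 3, 1.83 to 3.25 within slide 4 and 0.99 to 1.88 with slide as a block. The SEs of the members were 0.64 to 1.34 within slide 3 and 0.76 to 1.09 with slide as a block. In each of these fits all 7 members were higher in exposed skin, where 44.4%, 43.2% and 39.7% of all genes were. The members were chosen with their levels by group and slide known, and they moved together across animals. Nothing is therefore read from these counts either. Within slide 3 and with slide as a block 0 genes passed. Slide 4 rests on 1 exposed animal, and slides 1 and 2 hold 1 group each, so they add nothing to a comparison within slides; their 2 exposed animals ranked 8 or lower of 14 for every member.

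**Figure D4:**
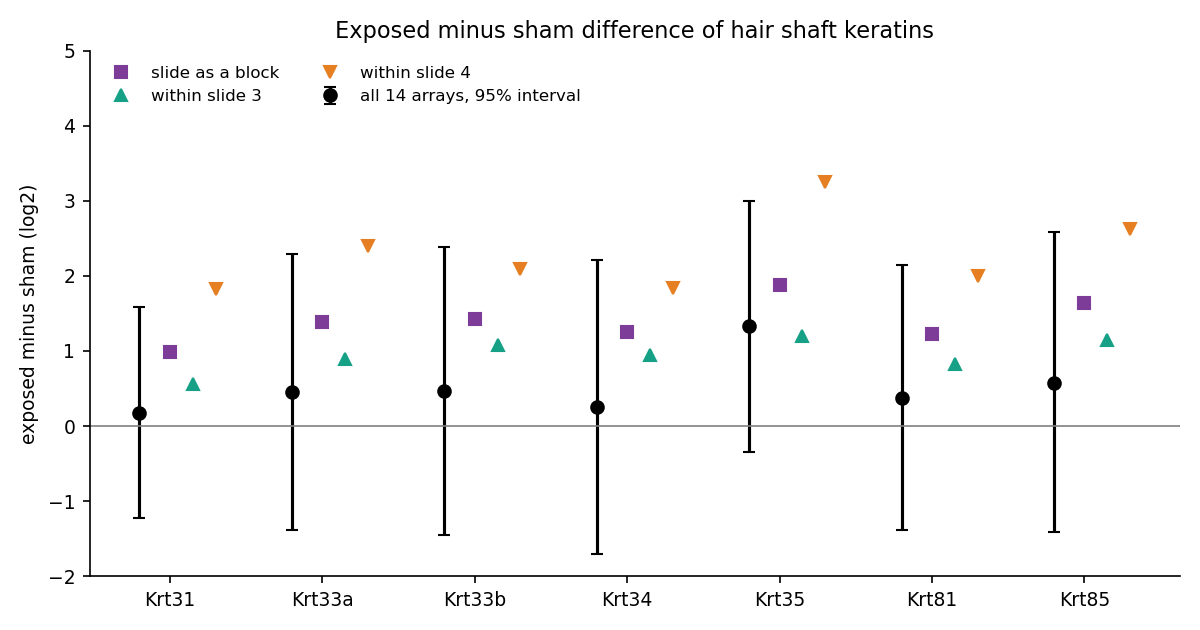
Exposed minus sham difference (log2) of each measured member: over all 14 arrays with its 95% interval (black), with slide as a block (purple squares), within slide 3 (green triangles) and within slide 4 (orange triangles). Every interval over all arrays crosses 0, and the within-slide differences are higher than the pooled one for every gene but Krt35 on slide 3. The block and within-slide values are drawn without intervals.

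**Figure D5:**
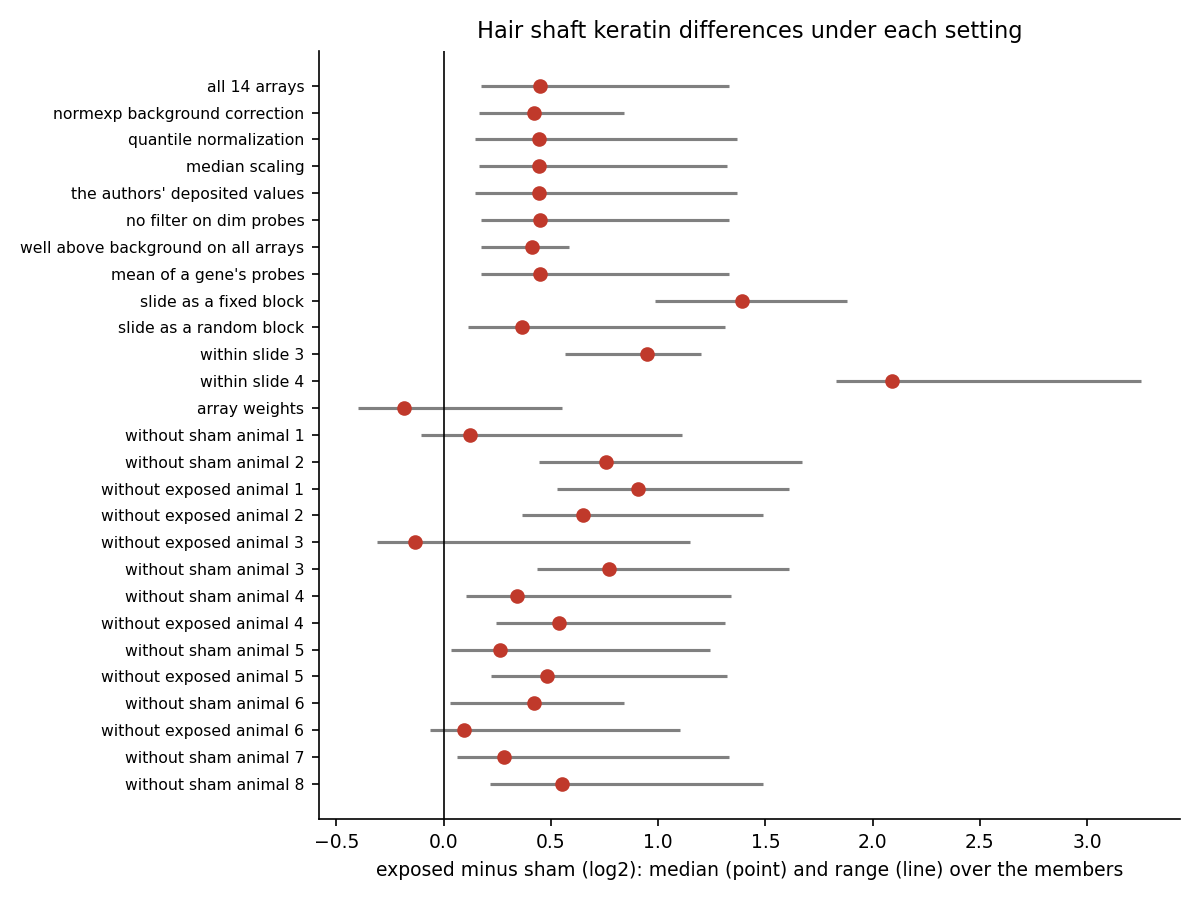
Median (point) and range (line) over the measured members of the exposed minus sham difference (log2) under each setting. The median lies below 0 without exposed animal 3 (-0.132) and with array weights (-0.184) and reaches 2.09 within slide 4.

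Other genes of fibre formation are given from lists, by the same fit. In either direction 0 genes of any list passed. Of all genes tested 43.0% had a higher mean in exposed skin. The lists were chosen with earlier results of these data known. The means of the other hair keratin, sheath, Krtap and structure lists had r of 0.76 to 0.95 with the member mean. Their counts are thus not independent of the members, and nothing is read from them. Of the 5 other hair keratins all 5 had a higher mean in exposed skin, with a median difference of 0.63 and Krt40 at 1.38 ± 0.76 (SE). All 7 sheath and companion keratins were higher (median 0.75), with Krt73, an inner root sheath keratin, at 1.05 ± 0.54 (SE). Of 15 Krtap genes 13 were higher (median 0.54), with Krtap10l1 at 1.34 and Krtap5-8 at 1.17. Of 12 other shaft and sheath structure genes 10 were higher (median 0.41). Among them Mt4, a metallothionein of stratified epithelia, was at 1.36 ± 0.56 (SE) and S100a3, a calcium-binding protein of the hair cuticle, at 1.23 ± 0.54 (SE). Padi3, which citrullinates follicle proteins, was at 0.78 ± 0.58 (SE). The desmosomal cadherin Dsg4, well above background on only 7 arrays, was at 0.73 ± 0.46 (SE). Of 25 measured follicle regulators 14 were higher and 11 lower (median 0.03), and Shh, Fgf5 and Edar were not kept. The largest differences among regulators were those of Lef1 (0.82 ± 0.41, SE), Msx2 (0.80 ± 0.37, SE), Msx1 (0.64) and Dlx3 (0.34), all transcription factors of the hair matrix or shaft. Lef1, Msx2, Msx1 and Dlx3, picked for their differences, had r of 0.72, 0.77, 0.60 and 0.67 with the member mean. The mean of all measured regulators had r = 0.66.

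Genes with the most similar pattern were ranked by Pearson's r with the member mean over the 14 animals. Among genes with a symbol, Krt87 came first, then the receptor gene Gprc5d, known from the hair cortex (r = 0.98, rho 0.94), Efhd1 (0.96) and the lipid synthesis gene Cds2 (0.94). Krtap14, Gucy2e, Pspn, Acy3, Krtap15-1 and Krtap7-1 followed, each at 0.94. Within the 10 animals below the gap their r was 0.99 for Krt87, 0.94 for Gprc5d, 0.85 for Efhd1, 0.93 for Cds2 and 0.73 to 0.92 for the rest. Gprc5d ran from -3.37 (median -1.46) to 1.35 in exposed and from -3.58 (median -1.83) to 0.39 in sham animals, so its groups overlapped as those of the keratins did. In all, 38 of 18604 other genes had r of at least 0.9 with the member mean, and 12 of the 20 highest carried no symbol. Efhd1 was well above background on 9 arrays.

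Markers of the other tissues in a skin biopsy were set beside these values, and their part in the differences was not tested. Of all genes tested 43.0% had a higher mean in exposed skin. Interfollicular keratins (4 of 5 listed) had r = -0.11 with the member mean. Krt5, Krt14, Krt1 and Krt2 were each well above background on all arrays. The list means ran from -0.41 to 0.17 in exposed and from -0.56 to 0.51 in sham skin. All 4 had a lower mean in exposed skin (median difference -0.10), Krt2 by the most (-0.71 ± 0.44, SE). Sebaceous gland genes (9 of 11) ran from -0.17 to 0.27 in exposed and from -0.12 to 0.13 in sham skin (r = -0.13), with 3 of 9 higher (median -0.06). Outer root sheath and stem cell genes (6 of 11) ran from -0.43 to 0.16 in exposed and from -0.80 to 0.33 in sham skin (r = 0.36), and dermal papilla genes (8 of 12) from -0.15 to 0.39 in exposed and from -0.34 to 0.33 in sham skin (r = -0.12), with 2 of 6 and 4 of 8 higher (medians -0.12 and -0.05). Skeletal muscle genes (11 of 15) ran from -1.91 to 4.87 in exposed and from -2.76 to 3.53 in sham skin (r = -0.30). All 11 had a higher mean in exposed skin, with a median difference of 1.36, larger than the 0.45 of the shaft keratins. Exposed animal 2, the highest in muscle, had a shaft mean of -0.73. Adipocyte genes (6 of 8) ran from -0.55 to 0.66 in exposed and from -1.11 to 0.25 in sham skin (r = 0.56), and all 6 were higher in exposed skin (median 0.27). Melanocyte genes (6 of 9) ran from -0.98 to 0.74 in exposed and from -0.43 to 0.39 in sham skin (r = -0.42), with 4 of 6 higher (median 0.01). Proliferation genes (8 of 10) ran from -0.17 to 0.27 in exposed and from -0.48 to 0.10 in sham skin (r = -0.17), and all 8 were higher (median 0.10). By group, exposed then sham, r with the member mean was -0.80 and 0.28 for interfollicular keratins. For dermal papilla genes it was -0.70 and 0.18, for adipocyte genes 0.87 and 0.32 and for outer root sheath genes 0.61 and 0.32. For muscle genes it was -0.05 and -0.62 and for melanocyte genes -0.51 and -0.36. Sebaceous genes had -0.22 and 0.08, and proliferation genes -0.44 and -0.08. These values rest on 6 and 8 animals. The log2 of the array's 75th percentile had r = 0.28 (rho 0.43) with the member mean over 14 animals. Within exposed animals r was -0.01 and within sham animals 0.47. Without the 2 animals whose member mean lay farthest from the median it was 0.50. The 7 measured shaft keratins were well above background in every animal, Krt35 in sham animal 6 excepted, so signal of these probes was present in skin of this hairless strain in both groups.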

How the data were processed

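Skin RNA of 14 animals was measured on one-colour Agilent arrays. Per the labels' protocols it was labelled with Cy3 by low-input amplification, and per the file headers spot intensity was extracted with Agilent Feature Extraction 10.7.3.1, with the background already subtracted and no scaling between arrays. The authors' deposited table held log2 values of 15168 probes, all 7 members among them, centred for each probe (column medians -0.0086 to 0.012). It correlated at 0.902 to 0.992 per array with the scanner values after the same centring. How it was normalized is not stated in the sources used here. The exposed minus sham differences of the 7 members in it equalled, as rounded, those under quantile normalization.

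Control spots were left out, and so were outlier spots unless all spots of a probe were flagged on an array. Log2 processed signals were reduced by the 75th percentile of the array, taken over all spots other than controls. Spots of a probe were averaged. Of 30367 probes, 21014 were well above background on at least 6 arrays and were kept. A symbol was found by accession in RefSeq (GRCr8) for 17998 probes; the array's own build is another, so probes are given no coordinates, and those printed with promoters are RefSeq's. The brightest kept probe stood for a gene. The exposed-minus-sham contrast came from limma (version 3.58.1, under R 4.3.3), group as the only term, Benjamini-Hochberg adjusted; the fit was tested on simulated data. Members and lists were chosen with earlier results of these data known. Genes were named by rule: the members, the 10 most similar genes with a symbol, and up to 4 per list with the largest difference; others were chosen after their values were seen. Slides were taken from the barcodes and scans of the files. Arrays number 14 and limit the precision; p-values treat animals as independent although cages were shared.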

Additional observations from a re-analysis of the deposited data

Results flagged for a closer look

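The level of Krt34 minus that of Krt35 came to 7.27 in sham animal 6, beside 3.75 in the next of the 8 sham animals and a lowest sham value of 2.29, a gap over range of 0.708, past Dixon's limit. The value is not an exact difference, since Krt35 was not well above background on that array. The pair was set out after sham animal 6 had been seen to stand apart, so the outcome is a description and no independent test. Krt35 alone did not pass (0.327). It was the only one past the limit among 18 series, each a member, their mean or this difference in a group, where chance gives about 1 in 20.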

How the results depend on the processing

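Over 26 other settings the number of genes past the adjusted threshold was 0 in each, with 294 to 2365 at an unadjusted p under 0.05 (636 in the fit over all arrays, 2365 with array weights, 1549 without sham animal 6). Every measured member was higher in exposed skin in 22 settings. The exceptions were array weights and leaving out exposed animal 3, exposed animal 6 or sham animal 1. Each member had 1 probe, so dropping the filter or averaging a gene's probes had to return the same differences. Requiring all arrays well above background did so too, and dropped Krt35. The deposited table gave the members the same differences as quantile normalization. The count of 22 is therefore no measure of robustness. With single arrays left out, the median over the members ran from -0.132 to 0.905, and the difference of Krt31 from -0.264 to 0.53, of Krt33a from -0.0598 to 1.00, of Krt33b from -0.132 to 0.905, of Krt34 from -0.31 to 0.883, of Krt35 from 0.839 to 1.67, of Krt81 from -0.162 to 0.753 and of Krt85 from 0.0851 to 1.15. Within slide 4, with 1 exposed array, the values moved by more than the SD between animals to 1.83 for Krt31, 2.40 for Krt33a, 3.25 for Krt35, 2.63 for Krt85 and 2.09 for the median; the cause was not tested. Quantile normalization, median scaling and the authors' deposited table moved the median to between 0.444 and 0.445, normexp to 0.423 and slide as a random block to 0.366. The median with slide as a fixed block was 1.39. With normexp, whose offset of 50 shrinks dim signals, Krt35 differed by 0.841. No paired analysis was possible because the labels give no replicate numbers that tie exposed to sham animals.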
